A study of Mus musculus with 8 samples.

Results

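A set of 10 genes that encode transcriptional regulators of mitochondrial and fatty acid metabolism was followed in mouse hearts that lack RNase H1. This enzyme cuts the RNA strand of RNA–DNA hybrids in mitochondria and, by earlier reports, in the nucleus. The 10 genes were chosen by name among the 54508 rows of the normalised-count table: the coactivators *Ppargc1a* and *Ppargc1b*, the fatty acid receptors *Ppara* and *Ppard* with the retinoid X receptor *Rxrg*, the oestrogen-related receptors *Esrra*, *Esrrb* and *Esrrg*, and the nuclear respiratory factors *Nrf1* and *Gabpa*. The rule itself used gene names and no expression value, although earlier results of these data were known when it was written. Knockout hearts (RNase H1-/-, n = 4) were compared with wild type hearts (RNase H1+/+, n = 4), all from C57BL/6 mice of 24 weeks. In the knockout, Cre recombinase under the muscle creatine kinase promoter (Ckmm-cre) deleted exon 2 of *Rnaseh1* in heart and skeletal muscle. The study gives its controls as floxed mice without Cre, so that the deletion and the presence of Cre cannot be told apart. Replicates are hearts of different animals according to the study, and RNA came from whole tissue.

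PGC-1α and PGC-1β, the products of *Ppargc1a* and *Ppargc1b*, do not bind DNA themselves. They are recruited by nuclear receptors of the PPAR and ERR families and by NRF1 and GABP, and together these factors switch on genes for fatty acid oxidation, the citric acid cycle, the respiratory chain and the maintenance of mtDNA. The adult heart burns mainly fatty acids and is among the tissues richest in PGC-1 and ERR transcripts. PPARs bind DNA as pairs with a retinoid X receptor, whereas ERRs bind an extended single half-site and need no known hormone.

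Start-site windows of 300 bases (250 before and 50 after an annotated start) from RefSeq, build GRCm38.p6, were taken by symbol for 9 of the 10 genes, with 15 windows in all. *Ppargc1b* was left out of this search. A panel of 6 motifs was searched on both strands, and the share of all 32851 RefSeq windows that hold each one is given for comparison. The NRF1 core GCGCATGC occurred in the windows of *Ppara* and *Esrra* and in 2.71% of all windows. A MEF2 site occurred in 1 window of *Esrrg* and 1 of *Nrf1* and in 3.19% of all windows. The half-site AGGTCA, which lies within the ERR element, occurred in 1 window of *Rxrg* and in 16.3% of all windows. None of the 15 windows held the extended ERR element TNAAGGTCA (1.28% of all windows), the GABP site CCGGAAGT (3.89%) or the cAMP response element TGACGTCA (1.79%). The 4 windows below are shown because they carry these matches in members whose level changed, and capitals mark the matched bases. In *Ppara* the core matched at bases 220 to 227 on the plus strand and at bases 222 to 229 on the minus strand of the same palindrome, in *Esrra* at bases 217 to 224 on the minus strand, in *Esrrg* the MEF2 site spanned bases 229 to 238, and in *Rxrg* the half-site spanned bases 163 to 168, all counted from the 5′ end of the window.
Ppara (chr15:85735526-85735825, plus strand): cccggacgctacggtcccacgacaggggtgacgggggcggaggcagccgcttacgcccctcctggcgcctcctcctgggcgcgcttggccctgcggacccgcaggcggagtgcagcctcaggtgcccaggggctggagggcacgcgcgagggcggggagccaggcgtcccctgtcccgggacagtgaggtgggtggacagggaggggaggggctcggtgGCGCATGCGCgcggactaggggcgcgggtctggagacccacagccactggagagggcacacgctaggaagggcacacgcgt
Esrra (chr19:6921759-6922058, minus strand): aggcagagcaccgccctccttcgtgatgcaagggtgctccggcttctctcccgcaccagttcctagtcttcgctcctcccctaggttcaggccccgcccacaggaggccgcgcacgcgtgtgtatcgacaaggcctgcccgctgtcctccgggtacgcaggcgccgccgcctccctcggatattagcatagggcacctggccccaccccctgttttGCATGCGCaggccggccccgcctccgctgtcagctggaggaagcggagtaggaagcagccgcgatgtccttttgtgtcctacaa
Esrrg (chr1:187608756-187609055, plus strand): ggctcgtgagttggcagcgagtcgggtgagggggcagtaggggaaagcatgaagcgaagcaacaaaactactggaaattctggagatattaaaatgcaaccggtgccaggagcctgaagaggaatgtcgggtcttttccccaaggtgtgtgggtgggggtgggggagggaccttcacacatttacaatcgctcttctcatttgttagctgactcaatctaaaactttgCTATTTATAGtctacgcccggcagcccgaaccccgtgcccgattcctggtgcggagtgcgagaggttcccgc
Rxrg (chr1:167618015-167618314, plus strand): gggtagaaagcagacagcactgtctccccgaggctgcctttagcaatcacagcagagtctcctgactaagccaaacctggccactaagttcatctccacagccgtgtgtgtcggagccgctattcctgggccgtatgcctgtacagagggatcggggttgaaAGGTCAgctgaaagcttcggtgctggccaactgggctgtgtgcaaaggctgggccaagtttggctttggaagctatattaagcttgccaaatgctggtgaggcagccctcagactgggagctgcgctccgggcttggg
A match describes the letters in a window and was not tested as a binding site.

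Each library held 27429878 to 30505752 counted read pairs in knockout hearts and 31810103 to 40715847 in wild type hearts. Transcripts of mtDNA took 9.46% to 12.3% of the pairs in knockout hearts, against 60.2% to 62.6% in wild type hearts, so that nuclear genes received 24835342 to 27146119 pairs in the knockout and 11896021 to 16213429 in the wild type. The deposited values are counts divided by a size factor per library, and this unit is called the normalised count here. *Rnaseh1* itself had 181.7, 144.7, 165.5 and 166.4 normalised counts in knockout hearts and 129.3, 144.2, 157.6 and 129.5 in wild type hearts (log2 change 0.23 ± 0.12 SE, adjusted p = 0.114), and with equal nuclear totals it was called higher (0.46, adjusted p = 0.00602). The row counts the whole gene and therefore does not check the loss of exon 2. The knockout libraries were spread along the second principal component (10% of the variance). Replicates 1 and 2 lay at -35.9 and -31.05, replicate 4 at 11.5 and replicate 3 at 54.2. The haemoglobin gene *Hba-a1*, for example, had 1931 and 1907 normalised counts in knockout replicates 1 and 2 and 5516 and 5101 in replicates 3 and 4. Values without replicate 3, the end of this spread, are given where they bear on a result. Leaving it out does not remove the difference between replicate 4 and replicates 1 and 2. All 10 cardiomyocyte markers (*Myh6*, *Tnnt2*, *Ttn* and others) were detected in every library. Their summed level was 1450600 to 1772900 normalised counts in knockout hearts and 3573600 to 3704400 in wild type hearts. Of 6 skeletal muscle markers 4 were under the filter on low values, *Mybpc2* was lower (80.7 ± 30.4 in knockout hearts and 466 ± 69.0 in wild type hearts) and *Tnnt3* was higher (42.9 ± 14.2 and 6.94 ± 1.77).

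Of the 10 regulators, all of which passed the filter on low values (a mean of at least 10 normalised counts), 8 fell, none rose and 2 were not called (limma-trend, adjusted p under 0.05 over all 17046 genes tested). Among all genes tested 28.4% were lower and 30.7% higher, 59.1% in either direction. The knockout and wild type values of the same 8 regulators did not overlap, against 26.5% of all genes with lower values that did not overlap. The median log2 change was -1.24 for the 10 regulators and 0.02 for all genes, and 6 regulators fell by at least 1 on the log2 scale, against 10.8% of all genes. Because RNA came from whole hearts, fewer cardiomyocytes and less of a transcript per cardiomyocyte cannot be told apart. The cardiomyocyte markers fell too (10 of 10, median log2 change -1.61). Of 8 fibroblast markers 5 rose (*Col1a1*, *Col1a2*, *Col3a1*, *Lum* and *Postn*), whereas *Dcn*, *Pdgfra* and *Dpt* were not called. The summed level of the 8 was 79929 to 111010 in knockout hearts and 28000 to 29619 in wild type hearts. Macrophage markers rose (7 of 7, 10489 to 13205 and 3761.8 to 4159.6). Of 7 endothelial markers 3 fell and none rose, and of 6 mural markers 3 fell and 2 rose. The part of these cell types in the changes of the regulators was not tested beyond the ratios to cardiomyocyte markers given below.

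The directions depend on how libraries are scaled, since mtDNA transcripts took so unequal a share. With equal totals of nuclear-gene reads the median log2 change of all genes was 0.24, and 8 regulators were still lower. With equal totals of all reads, mtDNA included, the median gene moved to 1.44 and 14953 genes were called higher and 567 lower, against 5241 higher and 4839 lower with the deposited size factors and 7355 and 3268 with equal nuclear totals. On that last scale of all reads no regulator was lower and 5 were higher (*Ppargc1b*, *Esrra*, *Gabpa*, *Ppard* and *Nrf1*). A scaling multiplies all genes of a library by 1 factor. By construction, therefore, each regulator kept nearly the same value relative to the median gene under the 3 scalings. With the deposited, equal nuclear and equal library scaling it was, for example, -1.35, -1.35 and -1.33 for *Ppargc1a* and -1.58, -1.58 and -1.57 for *Ppara*. Changes below are on the deposited scale unless another is named.

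**Figure D1:**
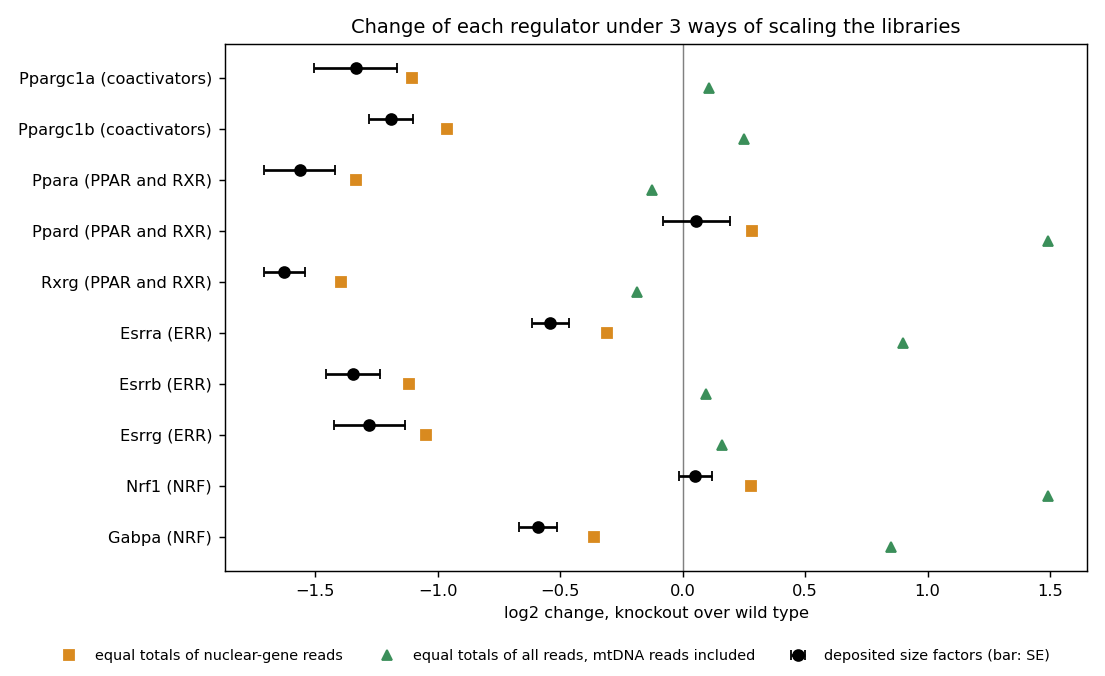
Log2 change of each of the 10 regulators, knockout over wild type, under 3 scalings of the libraries (black with SE, deposited size factors; squares, equal nuclear-gene reads; triangles, equal totals of all reads). The 3 symbols of a gene are shifted by about the same amounts, so that 8 regulators are called lower on the first and second scale and, with equal totals of all reads, 5 are called higher and none lower.

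Both PGC-1 coactivators fell on the deposited scale, although with equal totals of all reads *Ppargc1a* was at 0.11 and *Ppargc1b* at 0.25 (log2). *Ppargc1a* (ENSMUSG00000029167, chr5:51454250-51567726, minus strand, mm10) had 1025, 1024, 1909 and 1291 normalised counts in knockout hearts and 3403, 3158, 3082 and 3172 in wild type hearts. Every knockout value was below every wild type value, and replicate 3 was the highest of the knockout. The mean was 1312 ± 417 in the knockout and 3204 ± 139 in the wild type (SD, n = 4 each), or 41.0% of wild type, with a log2 change of -1.34 ± 0.17 (SE; adjusted p = 6.31e-05) and of -1.53 without knockout replicate 3. The coefficient of variation was 31.8% in knockout hearts and 4.33% in wild type hearts. *Ppargc1b* (ENSMUSG00000033871, chr18:61298136-61400431, minus strand) had 497, 457, 479.6 and 411.1 in knockout hearts and 1165, 1062, 920.8 and 1077 in wild type hearts. These groups did not overlap either, and replicate 3 was not set apart. *Ppargc1b* fell to 43.7% of wild type (log2 change -1.19 ± 0.09, adjusted p = 1.28e-06).

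Within a library, the log2 ratio of *Ppargc1a* to *Ppargc1b* does not depend on the size factor. It was 1.04, 1.16, 1.99 and 1.65 in knockout hearts and 1.55, 1.57, 1.74 and 1.56 in wild type hearts, so the groups overlapped (difference -0.14 ± 0.22 SE, exact permutation test, two-sided, p = 0.543, adjusted over 7 ratios 0.76). Rows for smaller transcript models inside *Ppargc1a*, on its own strand, were lower as well: *Gm42614* was at 34.4%, *Gm42615* at 38.6% and *Gm43605* at 33.3% of wild type (log2 changes -1.62 ± 0.31, -1.45 ± 0.30 and -1.61 ± 0.27). All 3 had no overlap between the groups. Because these models lie inside the gene on its strand, their reads cannot be told apart from those of unspliced *Ppargc1a* RNA. The hairpin row of *Mir378a*, a microRNA that lies within *Ppargc1b*, averaged 12.9 ± 4.18 in knockout hearts and 12.2 ± 6.29 in wild type hearts and was not called (adjusted p = 0.706). The row carries few reads and does not measure the mature microRNA.

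The third member of the coactivator family and a PGC-1-induced muscle coregulator went different ways. *Perm1*, which PGC-1 and ERRs induce in striated muscle, had 2078, 1803, 1817 and 1825 normalised counts in knockout hearts and 8811, 8779, 9091 and 10050 in wild type hearts. It fell by 2.29 on the log2 scale (SE 0.07, adjusted p = 1.99e-09), further than any of the 10 regulators, and no values overlapped. *Pprc1*, which encodes the PGC-1-related coactivator PRC, had 762.8, 712, 398.2 and 510 in knockout hearts and 458.5, 448.5, 318.3 and 383.3 in wild type hearts. The groups overlapped, and its rise of 0.53 ± 0.20 (adjusted p = 0.0406) lost its call without knockout replicate 1 or 2 or wild type replicate 2, 3 or 4 (adjusted p 0.0518 to 0.116). Per kb of exon, *Pprc1* made up 23.6 ± 7.94% of the summed PGC-1 family in knockout hearts and 7.82 ± 0.87% in wild type hearts, and the 2 groups' ranges were 13.4% to 30.3% and 6.76% to 8.74%.

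**Figure D2:**
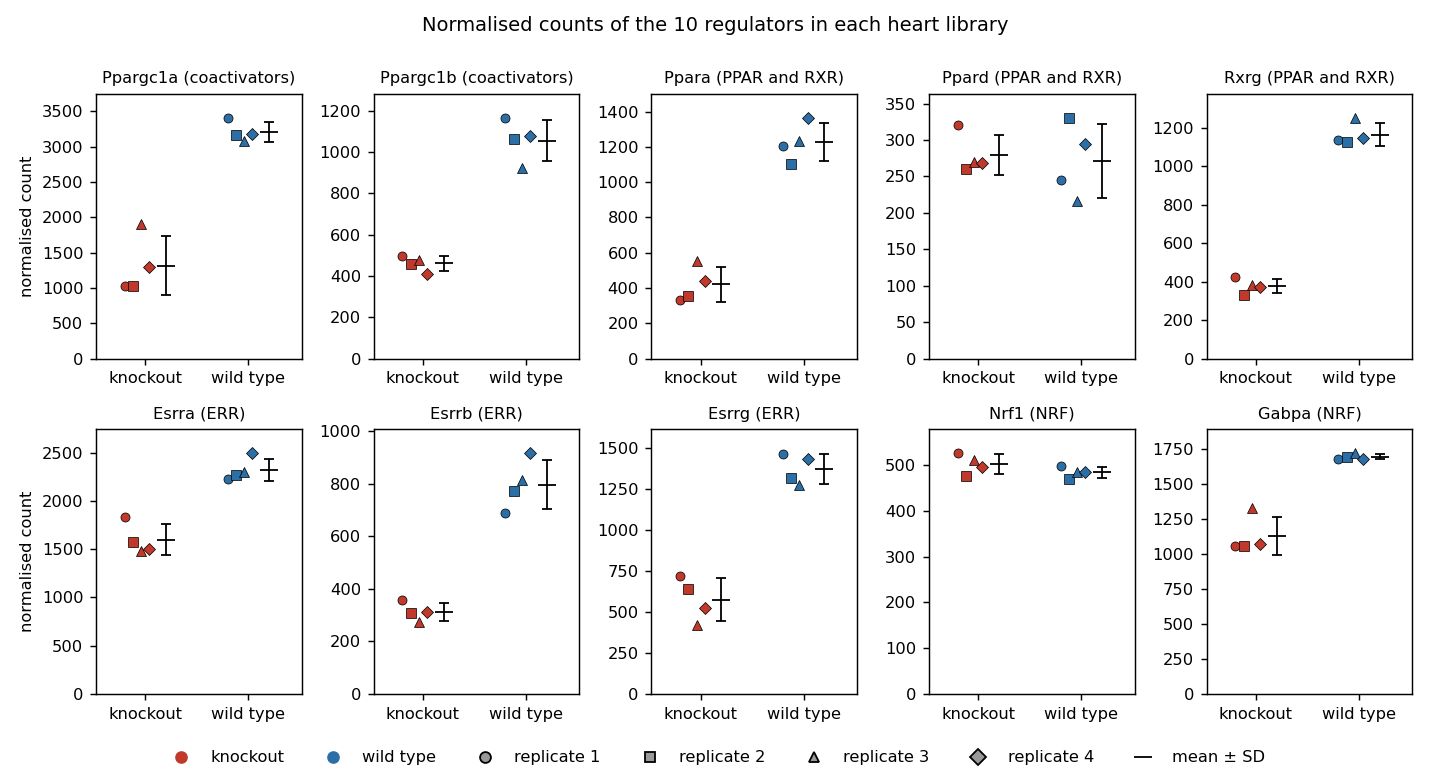
Normalised counts (y axis, from 0) of the 10 regulators in 4 knockout (red) and 4 wild type (blue) hearts, with the mean ± SD beside the points and symbols by replicate. In 8 panels the knockout points lie below the wild type points, and in *Ppard* and *Nrf1* they overlap; with equal totals of all reads instead of the deposited size factors none of the 8 was called lower.

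Of the PPARs, *Ppara* was called lower and *Ppard* was not called. *Ppara*, the main fatty acid sensor of heart and liver (ENSMUSG00000022383), had 333.4, 356.7, 553.3 and 441.9 normalised counts in knockout hearts and 1204, 1105, 1236 and 1364 in wild type hearts. The knockout was lower in every library, with replicate 3 nearest to the wild type. Its mean was 34.3% of wild type (421 ± 99.6 and 1227 ± 107, SD), with a log2 change of -1.57 ± 0.15 (adjusted p = 6.09e-06) and of -1.71 without knockout replicate 3. *Ppard*, the broadly expressed paralog (ENSMUSG00000002250), had 320.2, 259.8, 269.8 and 268.6 in knockout hearts and 245, 330.2, 216.3 and 295.2 in wild type hearts. These values overlapped, and its log2 change was 0.06 ± 0.14 (adjusted p = 0.752). The log2 ratio of *Ppara* to *Ppard* was 0.06, 0.46, 1.03 and 0.72 in knockout hearts and 2.29, 1.74, 2.51 and 2.20 in wild type hearts. The difference of -1.62 ± 0.26 reached the smallest p that 4 against 4 hearts allow (exact permutation p = 0.0286), which was 0.05 after adjustment over 7 ratios and so not under the threshold.

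*Pparg*, the adipogenic PPAR, was not called (289.5, 282.7, 427.5 and 332.2 normalised counts in knockout hearts and 302.2, 299.4, 262.6 and 288.3 in wild type hearts, log2 change 0.19 ± 0.13, adjusted p = 0.234). *Pparg* was called higher with equal nuclear totals (log2 change 0.42, limma-trend adjusted p = 0.0167). Adipocyte markers were near the detection limit and none of the 3 tested was called, with summed levels of 22.3 to 96.5 in knockout hearts and 19.0 to 108 in wild type hearts. Per kb of exon, the PPAR family was made up of *Ppara* at 42.0 ± 2.79%, *Pparg* at 43.3 ± 0.85% and *Ppard* at 14.7 ± 3.24% in knockout hearts. In wild type hearts *Ppara* took 70.5 ± 3.0%, *Pparg* 21.6 ± 1.80% and *Ppard* 7.98 ± 1.55%. The share of *Ppara* did not overlap between the groups, and the family sum was 259.8 ± 47.0 per kb in the knockout and 453.7 ± 26.6 per kb in the wild type.

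*Rxrg*, the striated muscle form of the retinoid X receptor (ENSMUSG00000015843), was the member with the lowest knockout level relative to wild type. It had 426, 333.1, 381.9 and 370.7 normalised counts in knockout hearts and 1139, 1125, 1251 and 1148 in wild type hearts. The mean was 32.4% of wild type (log2 change -1.63 ± 0.08, adjusted p = 7.98e-08), with no overlap and little spread in either group. *Rxra*, the broadly expressed α form, fell less (1189 ± 74.4 in the knockout and 2019 ± 76.0 in the wild type, log2 change -0.77 ± 0.06, adjusted p = 2.46e-06), and with equal totals of all reads it was at 0.68. *Rxrb*, the ubiquitous form, was not called (709 ± 52.0 and 705 ± 50.8, log2 change 0.01 ± 0.08), but it was called higher with equal nuclear totals (0.24, limma-trend adjusted p = 0.0203). Per kb, *Rxrg* took 29.3 ± 1.1% of the RXR family in knockout hearts and 48.1 ± 1.52% in wild type hearts, whereas *Rxrb* took 31.8 ± 0.44% and 16.8 ± 0.74%. The log2 ratio of *Ppara* to its partner *Rxrg* differed by 0.06 ± 0.20 between knockout and wild type hearts (exact permutation p = 0.771, adjusted 0.771), with overlapping values of -0.35 to 0.53 in the knockout and -0.03 to 0.25 in the wild type.

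**Figure D3:**
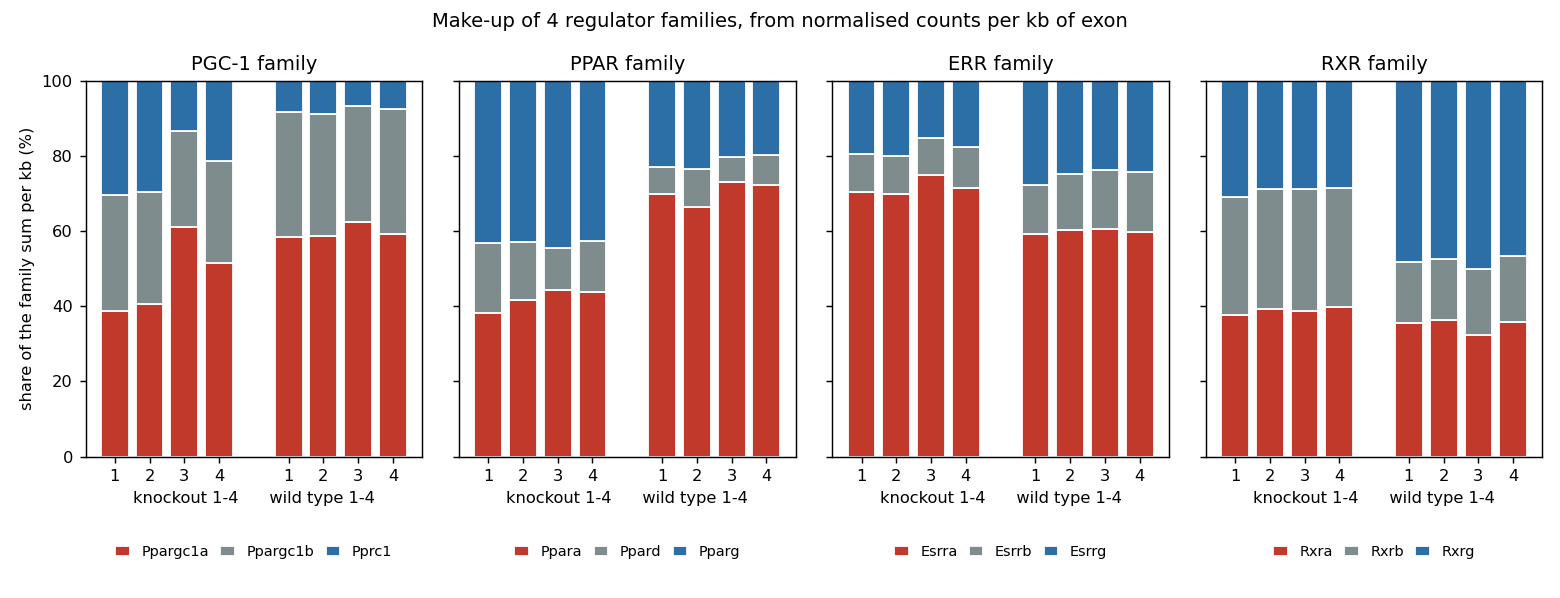
Share (%, y axis) of each gene in the summed normalised counts per kb of exon of its family, for knockout hearts 1 to 4 and wild type hearts 1 to 4 (x axis). *Ppara* takes 38.2% to 44.4% of the PPAR family in knockout hearts and 66.5% to 73.2% in wild type hearts, and *Rxrg* 28.6% to 31.0% and 46.5% to 50.1% of the RXR family.

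All 3 oestrogen-related receptors fell on the deposited scale, *Esrra* by the least, whereas with equal totals of all reads *Esrra* was at 0.90, *Esrrb* at 0.09 and *Esrrg* at 0.16 (log2). *Esrra*, the most abundant ERR and itself a target of PGC-1α (ENSMUSG00000024955), had 1835, 1575, 1481 and 1506 normalised counts in knockout hearts and 2228, 2267, 2297 and 2493 in wild type hearts. Its mean was 68.9% of wild type without overlap (log2 change -0.54 ± 0.08, adjusted p = 0.000132). *Esrrb*, best known from stem cells and placenta (ENSMUSG00000021255), had 358.5, 308.9, 272.4 and 310.2 in knockout hearts and 687, 771.3, 814.2 and 915.1 in wild type hearts. It fell to 39.2% of wild type (log2 change -1.35 ± 0.11, adjusted p = 2.09e-06). *Esrrg*, which drives oxidative metabolism in heart and slow muscle (ENSMUSG00000026610), had 716.9, 637.3, 421 and 525.8 in knockout hearts and 1467, 1317, 1272 and 1436 in wild type hearts. It fell to 41.9% of wild type (log2 change -1.28 ± 0.14, adjusted p = 2.53e-05), and to -1.14 on the log2 scale without knockout replicate 3.

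The sizes of the changes in the ERR genes were compared within libraries. The log2 ratio of *Esrra* to *Esrrg* was 1.36, 1.30, 1.81 and 1.52 in knockout hearts and 0.60, 0.78, 0.85 and 0.80 in wild type hearts (difference 0.74 ± 0.13). That of *Esrra* to *Esrrb* was 2.35, 2.35, 2.44 and 2.28 in knockout hearts and 1.70, 1.55, 1.495 and 1.45 in wild type hearts (difference 0.81 ± 0.06). Neither ratio overlapped between the groups, and each gave an exact permutation p of 0.0286, the smallest possible, or 0.05 adjusted over 7 ratios, which is not under the threshold. The ratio of *Esrrb* to *Esrrg* did not separate the groups (difference -0.07 ± 0.14, exact permutation p = 0.771). As a share of the ERR family per kb, *Esrra* took 71.8 ± 2.21% in knockout hearts and 60.0 ± 0.65% in wild type hearts, *Esrrg* 18.1 ± 2.24% and 25.1 ± 1.69%, and *Esrrb* 10.2 ± 0.36% and 14.9 ± 1.19%. The row *Gm38315*, a transcript model on the same strand inside *Esrrg*, was at 30.8% of wild type (log2 change -1.63 ± 0.23). Its reads cannot be told apart from those of unspliced *Esrrg* RNA.

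Of the nuclear respiratory factors, *Gabpa* was called lower and *Nrf1* was not called. *Nrf1* (ENSMUSG00000058440), whose product binds GC-rich sites of respiratory chain genes, had 525.5, 476.5, 510.9 and 496.8 normalised counts in knockout hearts and 499.1, 469.5, 485.1 and 485.2 in wild type hearts. The groups overlapped and the log2 change was 0.05 ± 0.07 (adjusted p = 0.535), but with equal nuclear totals it was 0.28 (adjusted p = 0.00363) and *Nrf1* was called higher. *Gabpa* (ENSMUSG00000008976), the DNA-binding subunit of GABP, also known as NRF2, had 1061, 1059, 1333 and 1071 in knockout hearts and 1681, 1698, 1721 and 1685 in wild type hearts. It fell to 66.7% of wild type (log2 change -0.59 ± 0.08, adjusted p = 9.27e-05), was at -0.67 without knockout replicate 3, and stood at 0.85 with equal totals of all reads. The log2 ratio of *Gabpa* to *Nrf1* was 1.01, 1.15, 1.38 and 1.11 in knockout hearts and 1.75, 1.85, 1.83 and 1.79 in wild type hearts (difference -0.64 ± 0.08, exact permutation p = 0.0286, adjusted 0.05, not under the threshold). Of the β subunits of GABP, *Gabpb2* fell by 0.29 on the log2 scale (SE 0.06, adjusted p = 0.00223), was no longer called with equal nuclear totals and was at 1.15 with equal totals of all reads, and *Gabpb1* was not called (0.12 ± 0.13, adjusted p = 0.454). *Gabpb1* was called higher with equal nuclear totals (0.35, limma-trend adjusted p = 0.0379). *Atp5j*, an ATP synthase subunit gene that overlaps *Gabpa* head to head on the opposite strand, fell by 1.01 (SE 0.06); the counting used strand, so reads of the pair were kept apart.

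Replicate 3 of the knockout was not high or low throughout. Among the 4 knockout hearts it held the highest value of *Ppargc1a*, *Ppara* and *Gabpa* and the lowest of *Esrra*, *Esrrb* and *Esrrg*. Without it, 8 regulators were still lower and none higher. Within that library the log2 ratio of *Ppargc1a* to *Ppargc1b* (1.99) and of *Esrra* to *Esrrg* (1.81) were the highest of all 8 hearts.

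Levels of different genes were compared per kb of exon, with the mean over 4 hearts. The length is that of all annotated exons of a gene together, not of the transcripts present in the heart. The ranks below and the family shares above therefore depend on the annotation. In knockout hearts *Esrra* was highest (365 ± 37.0 normalised counts per kb), followed by *Ppargc1a* (199 ± 63.3) and *Gabpa* (199 ± 23.7), whose values overlapped, then *Rxrg* (165 ± 16.6). *Ppargc1b* (116 ± 9.32), *Ppara* (110 ± 26.0) and *Esrrg* (92.7 ± 20.8) followed, each overlapping its neighbour in this order, then *Esrrb* (51.7 ± 5.84), which overlapped *Nrf1* (48.9 ± 2.03), and *Ppard* (37.2 ± 3.65). In wild type hearts *Esrra* (529 ± 26.9), *Rxrg* (508 ± 25.1) and *Ppargc1a* (486 ± 21.0) led, each overlapping the next. *Ppara* (320 ± 27.8) overlapped *Gabpa* (298 ± 3.19), *Ppargc1b* (265 ± 25.3) overlapped *Esrrg* (221 ± 15.1), and *Esrrb* (132 ± 15.7), *Nrf1* (47.1) and *Ppard* (36.2 ± 6.77) came last. *Rxrg* had rank 4 in the knockout and rank 2 in the wild type, and *Ppara* ranks 6 and 4.

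Each regulator was then set against the mean log2 level of the 10 cardiomyocyte markers of the same library. The marker mean itself was 15.7 ± 0.09 in knockout hearts and 17.2 ± 0.04 in wild type hearts (log2, SD), a difference of -1.503. The log2 changes of the single markers ran from -0.36 (*Actn2*) to -2.58 (*Pln*), so the differences below depend on which markers were chosen. Relative to it *Ppara* differed by -0.06, *Rxrg* by -0.12, *Esrrb* by 0.16, *Ppargc1a* by 0.17 and *Esrrg* by 0.22 between knockout and wild type, and for these 5 genes the groups overlapped. Their exact permutation p-values were 0.171 or more (0.286 or more adjusted over 10 genes), and without knockout replicate 3 *Ppargc1a* was at -0.05. Relative to the markers the difference was 0.31 ± 0.09 for *Ppargc1b*, 0.91 ± 0.11 for *Gabpa*, 0.96 ± 0.05 for *Esrra*, 1.55 ± 0.06 for *Nrf1* and 1.56 ± 0.16 for *Ppard*, each without overlap. For these 5 the exact permutation p was 0.0286, the smallest that 70 assignments can give, and 0.0571 after adjustment over 10 genes, so none passed the threshold.

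**Figure D4:**
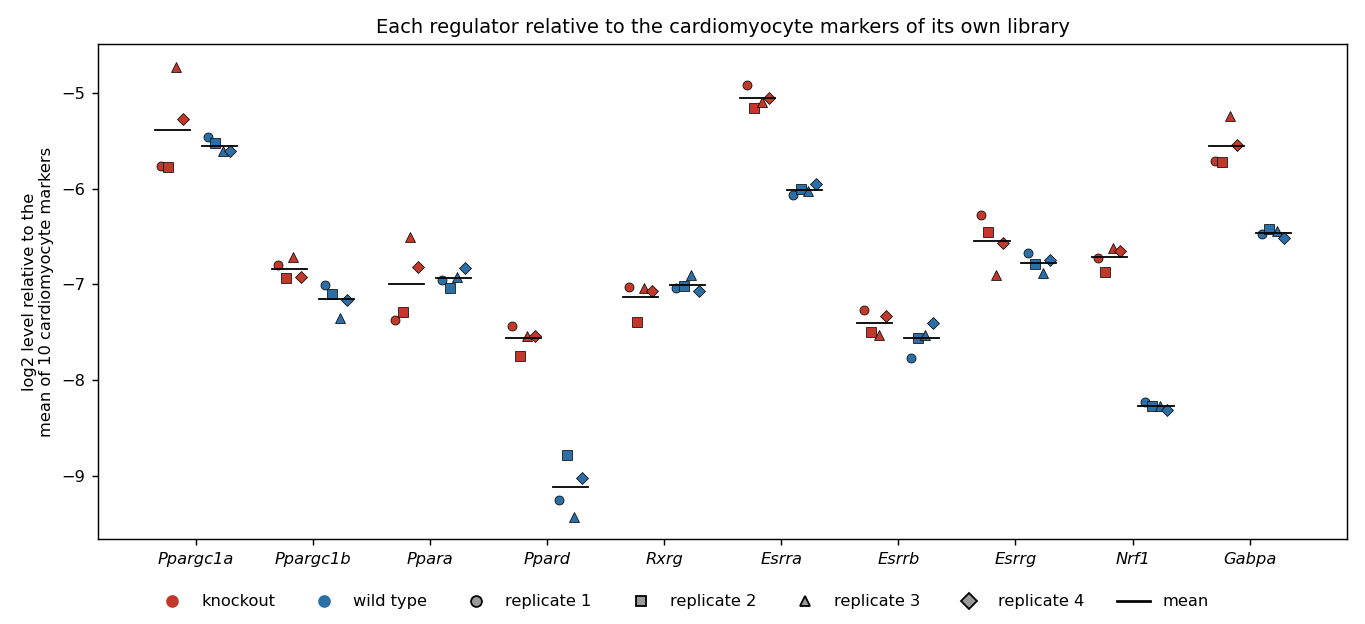
Log2 level of each regulator minus the mean log2 level of 10 cardiomyocyte markers in the same library (y axis), for 4 knockout (red, left) and 4 wild type (blue, right) hearts, with lines at the means. Points of *Ppargc1a*, *Ppara*, *Rxrg*, *Esrrb* and *Esrrg* overlap between the groups, and those of the other 5 genes lie higher in the knockout, by 0.31 to 1.56.

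The genes that control PGC-1α, from AMP-activated kinase subunits to MEF2 and CREB factors, were lower in 19 and higher in 3 of 26 cases, with a median log2 change of -0.35, against 28.4% of all genes lower and 30.7% higher. With equal nuclear totals 9 of the 26 were lower and 6 higher. The largest falls were those of *Lpin1*, a phosphatidate phosphatase and PGC-1α partner, and *Thrb*, a thyroid hormone receptor. *Lpin1* had 1393 ± 134 normalised counts in knockout hearts and 5680 ± 379 in wild type hearts (log2 change -2.03 ± 0.08, adjusted p = 1.33e-08). *Thrb* had 358 ± 107 and 865 ± 70.2 (-1.31 ± 0.17, adjusted p = 8.95e-05), and it was at 0.13 with equal totals of all reads. *Prkab2*, a regulatory subunit of AMP-activated kinase, rose, at 3130 ± 426 in knockout hearts and 1500 ± 54.0 in wild type hearts (1.05 ± 0.09, adjusted p = 2.50e-06). *Camk4*, a calcium-dependent kinase, was low, at 13.2, 16.8, 16.9 and 18.9 in knockout hearts and 3.01, 8.63, 12.4 and 6.91 in wild type hearts. Its log2 change of 1.12 ± 0.39 (adjusted p = 0.0296) lost its call without knockout replicate 2, 3 or 4 or wild type replicate 1 or 4 (adjusted p 0.0511 to 0.0769) and without the filter on low values (adjusted p = 0.0616). *Mtor*, the third gene that was higher, is named after its value was seen (0.26 ± 0.10, adjusted p = 0.0499), with overlapping groups.

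Of 15 coactivators and corepressors that work with these receptors, 7 fell and 1 rose, or 46.7% and 6.67%, against 28.4% and 30.7% of all genes (median -0.32). *Ncoa2* and *Ncoa1*, steroid receptor coactivators, fell by 0.62 (SE 0.06, adjusted p = 8.53e-06) and 0.50 (SE 0.12, adjusted p = 0.00434) on the log2 scale, but with equal totals of all reads they were at 0.82 and 0.94. The call of *Ncoa1* also ended with equal nuclear totals (-0.27, adjusted p = 0.0715). *Prmt1*, an arginine methyltransferase that modifies PGC-1α, rose by 0.45 ± 0.08 (adjusted p = 0.000844). With equal nuclear totals only 3 of the 15 were lower and 4 were higher.

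Of 27 PPAR targets tested, 17 fell and 4 rose, or 63.0% and 14.8%, against 28.4% and 30.7% of all genes, with a median log2 change of -0.72. *Vnn1*, the other gene of the list, did not pass the filter on low values. *Slc27a1*, a fatty acid transporter, had 1541, 1341, 1530 and 1467 normalised counts in knockout hearts and 4223, 4937, 4429 and 4239 in wild type hearts (log2 change -1.60 ± 0.07, adjusted p = 2.71e-08). *Lpl*, the lipase that frees fatty acids from lipoproteins, was at 24918 ± 6578 and 71621 ± 2344 (-1.56 ± 0.16, adjusted p = 1.04e-05). *Angptl4*, a secreted inhibitor of *Lpl*, had 776.1, 800.9, 1821 and 1532 in knockout hearts and 451, 558.2, 190 and 162.3 in wild type hearts (1.95 ± 0.42, adjusted p = 0.00235). *Acot2*, a mitochondrial acyl-CoA thioesterase, had 4192, 3741, 6147 and 6015 in knockout hearts and 1661, 1665, 1701 and 1644 in wild type hearts (1.56 ± 0.15, adjusted p = 6.49e-06). *Acot2* has close paralogs, *Acot1* among them, so the split of reads between them is uncertain. The other 2, *Plin2* (1.32 ± 0.24), a lipid droplet coat protein, and *Ucp2* (1.07 ± 0.25), an uncoupling protein, are named after their values were seen.

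Of 24 ERR and PGC-1 targets, mostly citric acid cycle and respiratory chain genes, 23 fell and none rose, against 28.4% and 30.7% of all genes, with a median log2 change of -0.90. *Mb*, the oxygen store myoglobin, had 37476 ± 3166 normalised counts in knockout hearts and 141360 ± 12615 in wild type hearts (-1.92 ± 0.09, adjusted p = 3.85e-08). *Ckmt2*, the mitochondrial creatine kinase of muscle, had 12629 ± 1340 and 36872 ± 3092 (-1.55 ± 0.09, adjusted p = 1.52e-07). *Vegfa*, an angiogenic factor and the 1 gene of the list that was not called, is named after its value was seen (-0.24 ± 0.17, adjusted p = 0.242).

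Of 18 NRF1 and GABP targets, 12 fell and 3 rose, or 66.7% and 16.7%, against 28.4% and 30.7% of all genes, with a median of -0.56. *Cox6c*, a subunit of cytochrome c oxidase, was at 4078 ± 135 normalised counts in knockout hearts and 9517 ± 362 in wild type hearts (-1.22 ± 0.05, adjusted p = 2.19e-08), and with equal totals of all reads at 0.22. *Tfb1m*, which methylates mitochondrial ribosomal RNA, was at 100 ± 22.7 and 210.3 ± 33.6 (-1.08 ± 0.19, adjusted p = 0.000723), and at 0.35 with equal totals of all reads. The pair of mitochondrial chaperonin genes *Hspe1* and *Hspd1*, which share a promoter region, rose by 0.96 ± 0.09 (adjusted p = 7.21e-06) and 0.64 ± 0.07 (adjusted p = 1.38e-05). *Tomm20*, an import receptor, is the third that rose and is named after its value was seen (0.24 ± 0.07, adjusted p = 0.0131). The NRF1 core shown above for *Ppara* and *Esrra* occurred in windows of 4 of the 15 NRF1 and GABP targets with a window, of 3 of 20 ERR and PGC-1 targets and of 1 of 21 PPAR targets, against 3.05% of all genes. The extended ERR element occurred in none of 20 ERR and PGC-1 targets (1.43% of all genes) and the GABP site in 1 of 15 NRF1 and GABP targets (4.31% of all genes). The half-site AGGTCA (18.1% of all genes) occurred in 6 of the 20 ERR and PGC-1 targets. For PPAR targets it was 7 of 21, and for NRF1 and GABP targets 4 of 15. The cAMP response element (2.03% of all genes) occurred in 4 of the 20 ERR and PGC-1 targets. None of the 21 PPAR or 15 NRF1 and GABP targets held it. These shares were not tested. With equal totals of all reads, none of the PPAR targets or NRF1 and GABP targets and 1 of the ERR and PGC-1 targets was lower, and 19, 17 and 19 were higher.

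**Figure D5:**
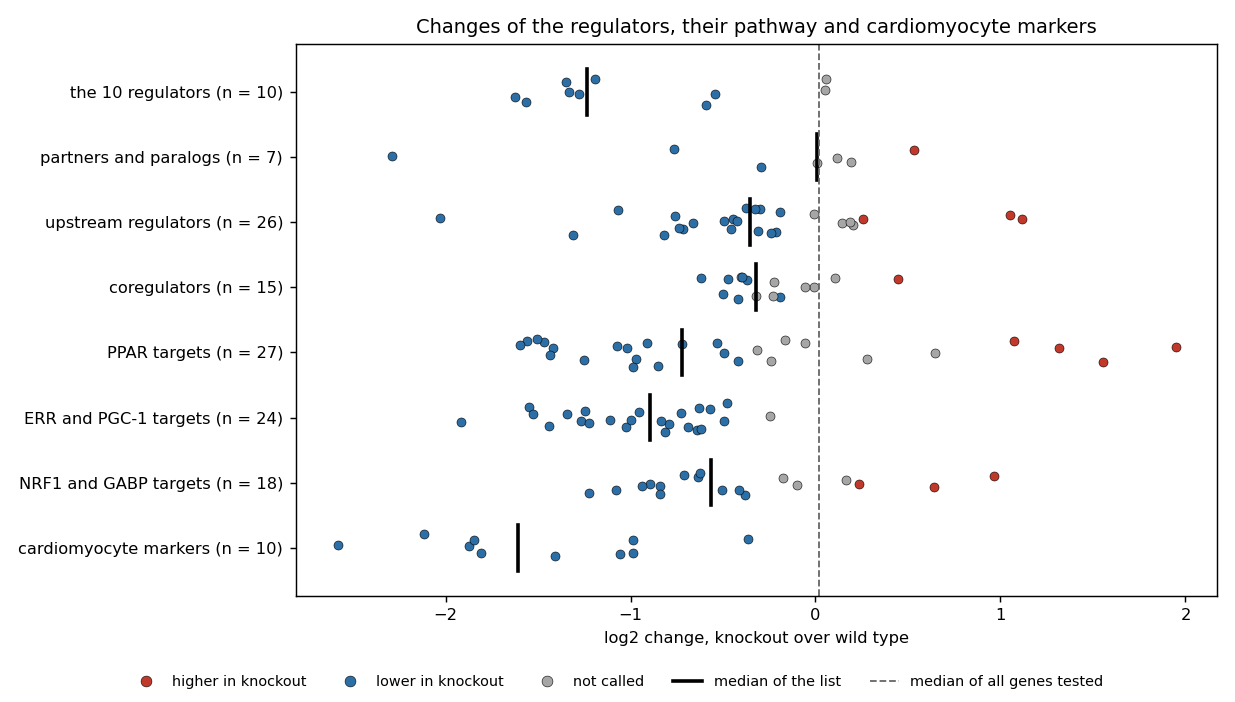
Log2 change, knockout over wild type (x axis, deposited scale), of each gene tested in 8 lists (y axis), coloured by the limma-trend call, with a thick line at the median of each list and a dashed line at the median of all genes (0.02). The medians of the 10 regulators (-1.24) and the cardiomyocyte markers (-1.61) lie lowest; with equal totals of all reads the median of all genes moved to 1.44 and no regulator was called lower.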

How the data were processed

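Total RNA from 4 knockout and 4 wild type hearts was made into Illumina TruSeq libraries. Per the labels and the study's methods, the authors aligned reads to mm10 with HISAT2 2.10, assigned pairs to Ensembl GRCm38 genes with featureCounts 1.6.3, using strand, and deposited counts divided by DESeq2 1.18.1 size factors (R 3.5.1), a signal called the normalised count here. Whole reads were recovered for 100% of values within 0.01 of an integer. The rows of the authors' own comparison (fold changes and p-values) were not used.

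Values were tested as log2(normalised count + 1) with limma-trend (limma 3.58.1, R 4.3.3) over 17046 genes with a mean of at least 10, two-sided, with Benjamini-Hochberg adjustment. Fold changes on this scale understate those of low genes. Because the deposited unit is a signal, the count tests edgeR 4.0.16 and DESeq2 1.42.0 on the recovered reads were alternatives, beside pseudocounts of 0.5 and 5, no filter, a minimum of 50, equal nuclear or equal library totals, a replicate block and leaving out each library. Log2 ratios within a library were compared with an exact permutation test (70 assignments). Exon lengths came from GENCODE M21 as the union of all annotated exons of a gene. The fits were tested on simulated data. The members and gene lists were chosen with earlier results of these data known. Named are all 10 members, 7 partners and paralogs, the 2 largest rises and falls past the threshold of every other list, and *Rnaseh1*.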

Additional observations from a re-analysis of the deposited data

Results flagged for a closer look

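In 8 of the 104 groups of 4 hearts examined, 1 heart lay far from the other 3 for the spread of its group, and chance alone gives about 1 in 20. Among the regulators, knockout replicate 1 had 320.2 normalised counts of *Ppard*, against 259.8 to 269.8 in the other knockout hearts, and knockout replicate 3 had 1333 of *Gabpa*, against 1059 to 1071. Among their partners, knockout replicate 1 had 2078 of *Perm1* (others 1803 to 1825) and knockout replicate 2 had 1077 of *Rxra* (others 1218 to 1231). Among the targets, knockout replicate 3 had 66.47 of *Tfb1m* (others 109.0 to 116.2), and wild type replicate 4 had 75130 of *Lpl* (others 70310 to 70610). The log2 ratio of *Rxrg* to the cardiomyocyte markers was -7.391 in knockout replicate 2 (others -7.074 to -7.026). The log2 ratio of *Ppargc1a* to *Ppargc1b* was 1.742 in wild type replicate 3 (others 1.546 to 1.571).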

How the results depend on the processing

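The counts of regulators (8 lower, none higher) were the same with both pseudocounts, both filters, edgeR, DESeq2, the replicate block and each library left out. Most of the other changes came with scaling. With equal nuclear totals 1 regulator, 4 partners and paralogs, 6 upstream regulators and 4 coregulators were higher, and 9 upstream regulators and 3 coregulators lower. With equal totals of all reads 14953 genes were higher and 567 lower. In that scaling 5 regulators were higher and 0 lower, 6 partners and paralogs higher and 1 lower, 23 upstream regulators higher and 1 lower, 15 coregulators higher and 0 lower, 19 PPAR targets higher and 0 lower, 19 ERR and PGC-1 targets higher and 1 lower, and 17 NRF1 and GABP targets higher and 0 lower. The genes that turned from lower to higher values were *Ppargc1a* (0.11), *Ppargc1b* (0.25), *Esrra* (0.90), *Esrrb* (0.093), *Esrrg* (0.16), *Gabpa* (0.85), *Rxra* (0.68), *Gabpb2* (1.15), *Thrb* (0.13), *Ncoa2* (0.82), *Ncoa1* (0.94), *Cox6c* (0.22) and *Tfb1m* (0.35). Among these genes *Ppargc1a*, *Esrrb*, *Esrrg*, *Thrb* and *Tfb1m* were not called on this scale (limma-trend, adjusted p 0.114 to 0.538). The 5 regulators called higher were *Ppargc1b*, *Esrra*, *Gabpa*, *Ppard* (1.49) and *Nrf1* (1.49). By construction this scaling adds 1.44 to the log2 change of the median gene. Without the filter 1 upstream regulator was higher. Leaving out 1 library gave 0 to 1 higher partners and paralogs and 1 to 3 higher upstream regulators. It also gave 14 to 17 lower upstream regulators, against 19 with all 8 libraries. PPAR targets called lower numbered 17 with limma-trend, 14 with edgeR and 15 with DESeq2. Same-numbered hearts did not deviate together over all genes tested (correlations -0.07 to 0.04), so no pairing by number was seen. A litter or batch shared by same-numbered hearts was not tested. With the replicate block 5076 genes were higher and 4645 lower, and no call of a regulator changed. Leave-one-out ratios could not reach the threshold and are values without a test. With 4 hearts a group, an exact test cannot go below 0.0286, and whole-tissue RNA does not separate the level per cell from the share of cells.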
